A study of Mus musculus with 9 samples.

Results

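In cultured mouse pancreatic cancer cells, 83 genes that were transcribed in a line with intact CD49b stood at 1/16 or less of that level in the CD49b knockout line, many of them with few or no reads. A gene was placed in the set when its mean over the WT cultures was at least 5 CPM (the gene's count as a share of the library total, put on the usual per-library scale) and its mean over the KO cultures was at most 1/16 of that. Both means chose the set, so the culture values below are a description with no test, and only the tumour libraries, which took no part in the choice, were tested. Of 10273 genes with a WT culture mean of at least 5 CPM, among 49671 in the table, 96 passed both limits (0.934%), and 13 of these, with symbols of the collagen, claudin, keratin, interferon-induced, Slfn, Apol or Psmb families or Rtp4, were set aside.

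RNA was measured by bulk mRNA sequencing with unique molecular identifiers in 4 groups. These were cultures of KPC49bKO, the CD49b knockout line (KO culture, 2 libraries), cultures of KPCWT, the line with genotype WT and so with intact Itga2 by its label (WT culture, 2), tumours grown from KPC49bKO cells (KO tumour, 2) and tumours grown from KPCWT cells (WT tumour, 3). Cultures grew in DMEM with serum, and tumours grew under the skin of the flank of syngeneic C57BL/6 mice and were dissociated with enzymes before RNA extraction, so tumour libraries also hold RNA of host cells. Each genotype is 1 cell line, so a difference between KO and WT libraries is a difference between 2 lines, and the labels do not say how the knockout line was isolated.

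Itga2 encodes CD49b, the alpha 2 integrin chain, which joins the beta 1 chain in a receptor for collagen. Pancreatic ductal adenocarcinoma cells are epithelial and usually express keratins and E-cadherin. A gene can be kept silent through the cell divisions of a line, and some silent genes with promoters rich in CpG, a cytosine followed by a guanine, carry methylation there. Neither DNA methylation nor chromatin was measured here.

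Total counts per library ran from 16032912 to 21247023. Itga2 was counted in every library, with 81.7 and 82.0 CPM in KO cultures, against 150.2 and 110.4 CPM in WT cultures. In tumours it had 47.6 and 72.9 CPM in KO libraries, against 142, 168 and 164 CPM in WT libraries, and it fell by 1.32 on the log2 scale (SE 0.18, adjusted p = 0.00602). Counts over the whole gene do not show whether its protein was lost. The 8 epithelial markers summed to 8712 to 9670 CPM in KO cultures and 10091 to 10124 CPM in WT cultures, with Cdh1 and the keratins high and Epcam at 0 and 0.0548 CPM in KO cultures against 3.16 and 2.83 CPM in WT cultures. The 10 fibroblast and pericyte markers summed to 444 and 633 CPM in KO tumours, against 1706, 1111 and 2902 CPM in WT tumours, and to at most 2.37 CPM in any culture.

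The adjusted p is that of edgeR's quasi-likelihood test with Benjamini-Hochberg adjustment over all 16257 genes tested in tumours, and a gene was called at an adjusted p under 0.05. In bulk tumours, fewer cells of a type and less RNA per cell cannot be told apart. One KO tumour column bears the number 3 in the count table, although the labels know only KO tumours 1 and 2, and it is called KO tumour 3 here.

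In the KO cultures, 10 of the 83 genes had no count in either library, 14 had 1 to 3 counts over both, and the highest KO mean was 5.98 CPM. The median over the 83 genes was 0.215 CPM in KO cultures, against 9.51 CPM in WT cultures, where means ran from 5.03 to 138 CPM. The 10 genes without a KO count were Tspan12, Piezo2, Syt7, Kif21a, Pygl, Tceal8, Lipo3, Rcn1, Gng2 and Afap1l1. Against a floor of 3 counts over the KO group, Tspan12 was at least 119.7-fold lower in KO than in WT cultures, Piezo2 at least 116-fold, Syt7 at least 95.9-fold, Kif21a at least 84.1-fold and Pygl at least 75.0-fold. These genes encode unlike proteins: a tetraspanin of the Norrin receptor complex, a channel opened by stretch, a calcium sensor of vesicle fusion, a kinesin that restrains microtubule growth and the liver form of glycogen phosphorylase.

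RefSeq promoters of the GRCm38.p6 assembly were matched for 58 of the 83 genes by symbol, and for 6 of the 10 without a KO count. From those 6, the pair with the most CpG and the pair with the fewest are shown, because all 4 were without a single read in KO cultures while these RefSeq windows differ in CpG. Each line is the 250 bases before the annotated start on the minus strand, 5′ to 3′, with every CpG in capitals. The Kif21a window lies just upstream of the GENCODE gene, while the other 3 lie inside the longest GENCODE span of their gene. The 50 bases after the RefSeq start were found in 0 of 7 GENCODE transcripts of Kif21a, 1 of 6 of Pygl, 1 of 6 of Gng2 and 0 of 4 of Lipo3, so these may not be the promoters in use in these cells.
Kif21a: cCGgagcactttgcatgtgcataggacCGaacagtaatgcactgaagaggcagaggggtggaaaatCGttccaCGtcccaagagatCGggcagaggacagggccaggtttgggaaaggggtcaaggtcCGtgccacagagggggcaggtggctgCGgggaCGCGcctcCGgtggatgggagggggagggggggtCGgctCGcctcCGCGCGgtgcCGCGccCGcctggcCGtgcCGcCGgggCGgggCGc
Pygl: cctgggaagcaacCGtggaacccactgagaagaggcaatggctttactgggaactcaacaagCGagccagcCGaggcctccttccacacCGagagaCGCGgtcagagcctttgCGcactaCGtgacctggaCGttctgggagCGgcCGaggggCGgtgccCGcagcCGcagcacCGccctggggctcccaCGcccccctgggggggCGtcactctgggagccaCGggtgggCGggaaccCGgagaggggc
Gng2: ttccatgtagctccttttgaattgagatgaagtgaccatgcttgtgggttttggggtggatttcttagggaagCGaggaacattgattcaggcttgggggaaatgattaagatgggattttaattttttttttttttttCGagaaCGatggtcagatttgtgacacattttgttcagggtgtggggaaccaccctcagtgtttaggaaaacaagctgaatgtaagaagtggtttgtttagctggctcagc
Lipo3: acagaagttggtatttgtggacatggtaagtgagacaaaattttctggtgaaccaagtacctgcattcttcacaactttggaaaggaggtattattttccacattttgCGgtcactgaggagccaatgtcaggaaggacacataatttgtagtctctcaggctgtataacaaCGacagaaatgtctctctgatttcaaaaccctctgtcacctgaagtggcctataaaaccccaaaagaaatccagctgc
They lie at chr15:91049952-91050201, chr12:70227684-70227933, chr14:19976694-19976943 and chr19:33590312-33590561. The motif CG occurs 23 times before Kif21a, 20 times before Pygl, 3 times before Gng2 and 2 times before Lipo3. Over 27025 RefSeq promoters, the window of the same length held a median of 6, and 91.7% held at least 1, counted on the strand of the gene, which gives the same number on both. Since fewer than 80% of the 83 genes were matched, no comparison of the set with other promoters was made.

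Positions given with a gene are those of GENCODE M21 on GRCm38. Cnn3, an actin-binding calponin (ENSMUSG00000053931, chr3:121426497-121458207), had 2.26 and 2.58 CPM in KO cultures, against 142 and 134 CPM in WT cultures. Dio3, the deiodinase that inactivates thyroid hormone (ENSMUSG00000075707, chr12:110279068-110281097), had 4.80 and 4.83 CPM in KO cultures, against 117 and 139 CPM in WT cultures. Car8, a carbonic anhydrase relative without the enzyme activity, had 4.94 and 7.02 CPM in KO cultures, against 99.9 and 121 CPM in WT cultures. All 3 kept a countable level in both KO cultures, so they were reduced to a small share of the WT level and not switched off outright.

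Ckb, the brain form of creatine kinase, had 0.518 and 0.822 CPM in KO cultures, against 64.5 and 70.0 CPM in WT cultures. Cadps, which primes dense-core vesicles for release, had 0.377 and 0.713 CPM in KO cultures, against 62.8 and 64.6 CPM in WT cultures. Prss22, a trypsin-like serine protease, had 3.11 and 1.54 CPM in KO cultures, against 50.4 and 53.0 CPM in WT cultures. The replicate cultures of each line lay close together for Ckb and Cadps, and both KO cultures of Prss22 stayed above 1 CPM. Wnt7b, a Wnt ligand, had 1.65 and 0.877 CPM in KO cultures, against 48.9 and 43.4 CPM in WT cultures. Mcpt8 had 1.84 and 1.15 CPM in KO cultures, against 29.0 and 38.1 CPM in WT cultures, and encodes a serine protease known from mouse basophils. Serinc2 had 0.800 and 0.164 CPM in KO cultures, against 31.4 and 29.5 CPM in WT cultures. The groups lay far apart for each of these. Fabp5, which carries fatty acids inside cells, had 0.282 and 0.768 CPM in KO cultures, against 24.6 and 29.0 CPM in WT cultures. Add2, the beta subunit of adducin, had 1.74 and 1.48 CPM in KO cultures, against 29.8 and 22.2 CPM in WT cultures. Ddah1, which breaks down an inhibitor of nitric oxide synthase, had 0.659 and 0.329 CPM in KO cultures, against 28.9 and 21.7 CPM in WT cultures. Per kilobase of exon, the mean WT culture level was 63.0 CPM for Dio3, 45.4 CPM for Cnn3 and 39.1 CPM for Prss22, the highest of the set on that scale.

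**Figure D1:**
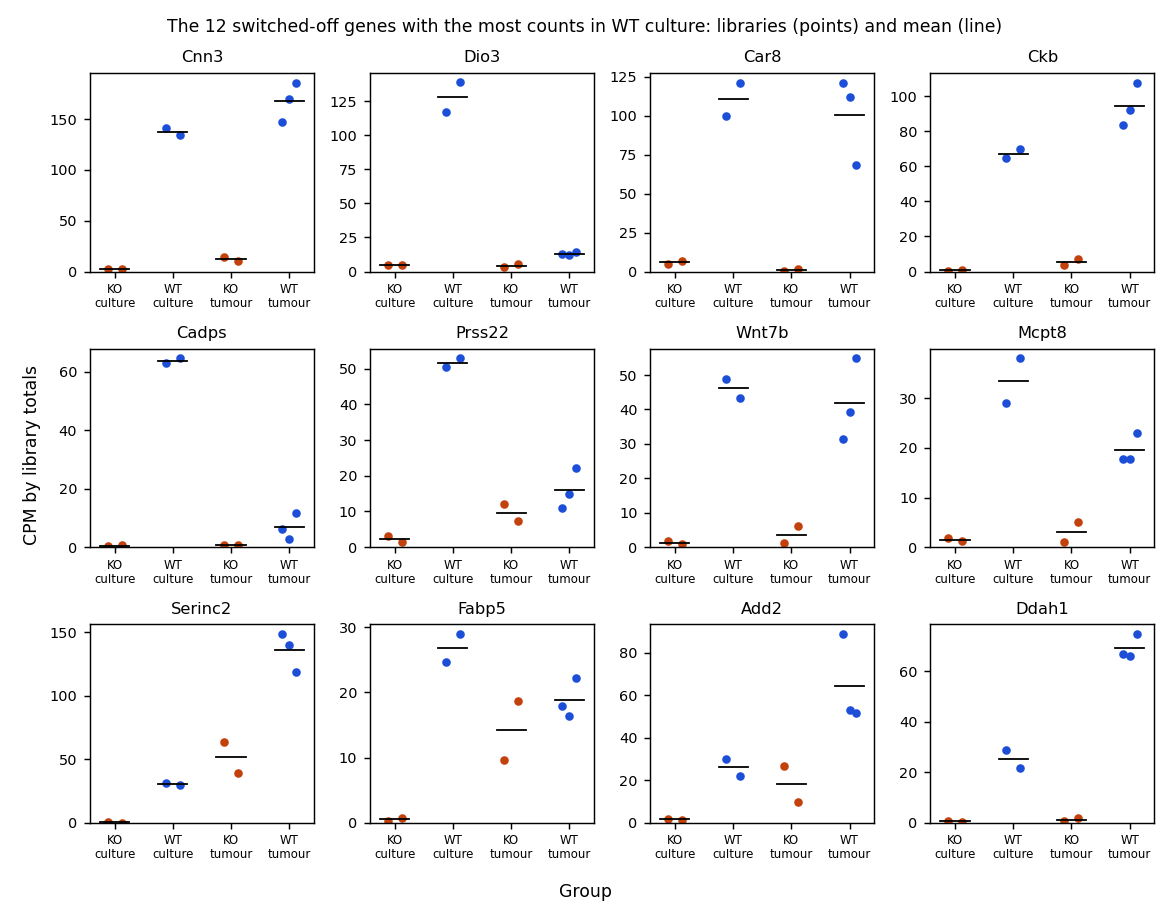
CPM by library totals (vertical axes, each from 0) of the 12 switched-off genes with the most counts in WT culture, by group, with 1 point per library and a line at the mean. KO culture points lie near 0 in every panel, and in tumours the KO points overlap the WT points for Prss22 and Fabp5.

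Genes with a few KO reads showed ratios as wide. Adcy1, a calmodulin-stimulated adenylyl cyclase, had 0.0471 and 0 CPM in KO cultures, against 20.5 and 15.02 CPM in WT cultures. The single KO count gave a KO over WT ratio of 0.00143, with an exact 95% interval of 3.62e-05 to 0.00800 that covers counting error only. The WT mean was 212 times the KO mean for Ace, 147 times for Cd300lb, 147 times for Mab21l3 and 117 times for Cadps. Ace encodes the enzyme that makes angiotensin II, and Cd300lb an activating immunoglobulin-like receptor of myeloid cells.

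The limits of the set fall within a continuous range of values. Just inside the limit of 16, the WT mean was 16.2 times the KO mean for Add2, 16.3 times for Ccrl2, 16.8 times for Dlg3 and 17.0 times for Ldlrad4. Just outside it were Hip1 at 15.8 times, Fkbp10 and Gzme at 15.7 times and Kcnq1 at 15.5 times. At the limit of 5 CPM, WT culture means were 5.03 CPM for Afap1l1, 5.06 for Gng2, 5.21 for Kctd17 and 5.24 for Rcn1 inside, and 4.99993 for Anpep, 4.99 for Ass1 and 4.97 for Abca13 and Zik1 outside.

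The tumours gave the same lines an independent set of libraries. Of the 83 genes, 66 fell in KO tumours, 0 rose, 16 were not called and 1 was removed by the filter on low counts. Over all 16257 genes tested, 10.9% were called lower in KO tumours and 8.78% higher. These include genes below the WT culture mean of 5 CPM that the rule required, and no share of calls at that level was taken. At an unadjusted p under 0.05 in edgeR, 1 gene of the set, Mt3, was higher, and DESeq2 and limma-voom each called 0 of the set higher at an adjusted p under 0.05. Every KO tumour lay below every WT tumour for 76 of the 83 genes, beside 32.1% of the genes tested, and above for 1, beside 21.2%. The log2 fold change ran from -7.31 to 1.28 with a median of -3.16 over the 82 genes tested, beside -0.01 over all genes tested. The filter asks for reads in only as many libraries as the smaller group holds, so a gene could enter the test through the WT tumours alone. Genes such as Kif21a, Ogdhl, Bhlhb9, Sox11, Stmn2, Dlg3, Bmp8b and Syt7 did so, with under 10 counts in each KO tumour. Their entry was thus tied to a high WT level, and how many of the calls were of this kind was not counted. All 5 tumour libraries came from animals carrying these 2 lines, so the line and the genotype cannot be told apart here either.

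The difference was also large in size. Among the 76 genes of the set with a WT tumour mean of at least 5 CPM, the KO tumour mean was at most 1/4 of it for 60, and at most 1/16 for 24. Of the 11360 genes tested at that WT level, 4.23% passed the limit of 1/4 and 1.25% that of 1/16. The set's median level was 2.55 CPM in KO tumours, against 22.1 CPM in WT tumours.

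**Figure D2:**
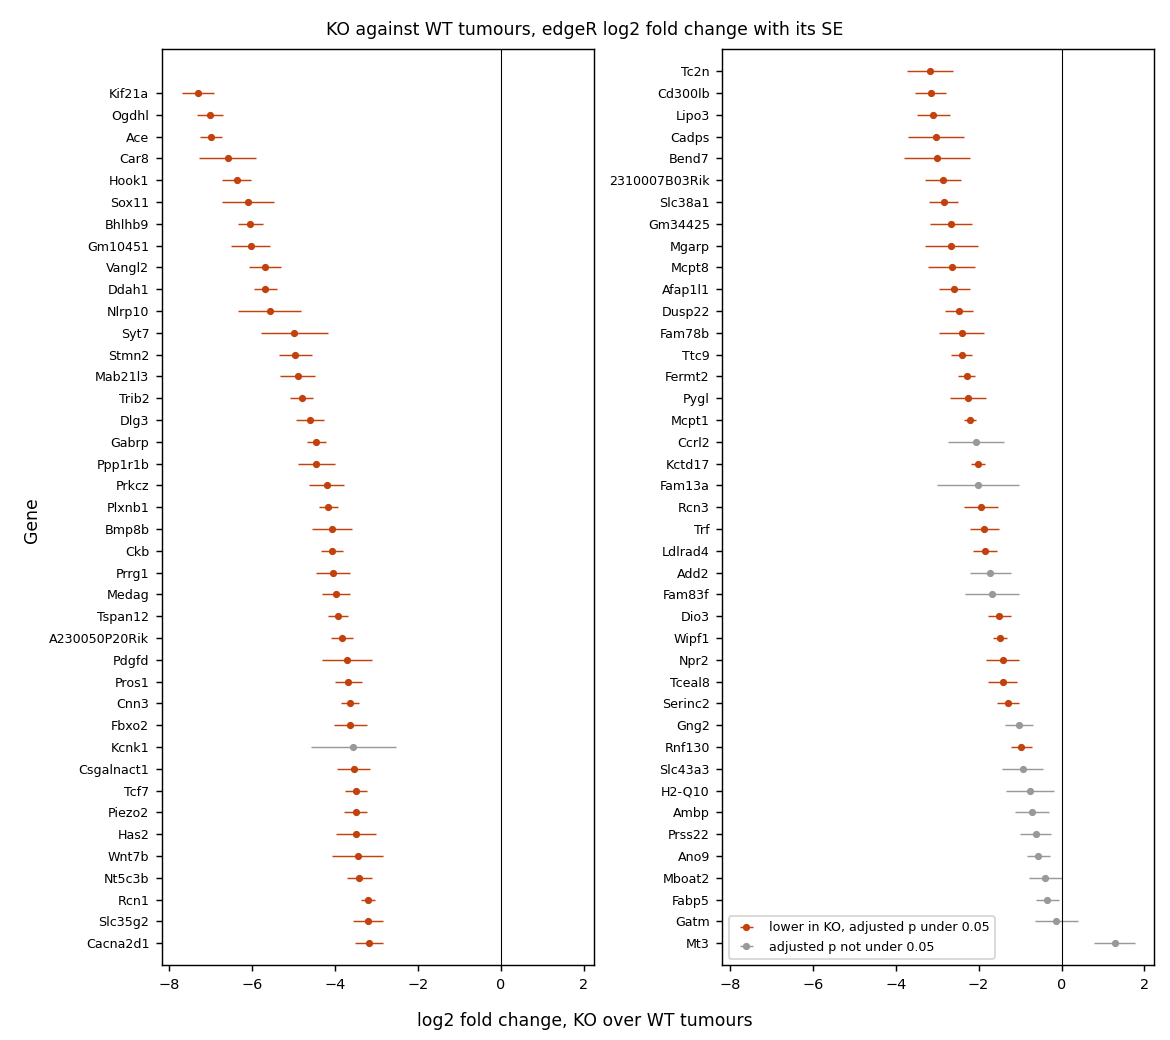
Log2 fold change of KO over WT tumours (horizontal axis) with its SE (bars) for 81 of the 82 switched-off genes that passed the filter, from the edgeR fit of 2 KO and 3 WT libraries, in orange where the adjusted p was under 0.05 and grey otherwise. The values run from -7.31 for Kif21a to 1.28 for Mt3, and Mt3 is the one value shown that lies above 0.

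The genes of microtubules, actin and adhesion, 11 in number, fell in 10 cases, and 6 of the 11 were past 16-fold in tumours too. Kif21a had 0.0624 and 0.246 CPM in KO tumours, against 25.6, 30.0 and 26.1 CPM in WT tumours, and fell by 7.31 on the log2 scale (SE 0.39, adjusted p = 0.000487). Its KO tumours lay below 1 CPM and its WT tumours close together at a high level, and it entered the test through the WT tumours alone. Its log2 fold change was -8.46 without KO tumour 3 and -6.71 without KO tumour 1. Hook1, an adaptor that links dynein to endosomes, had 0.499 and 0.738 CPM in KO tumours, against 60.9, 64.2 and 40.7 CPM in WT tumours, and fell by 6.38 on the log2 scale (SE 0.35, adjusted p = 0.000531). Stmn2, a stathmin that binds tubulin and is best known from neurons, had 0.249 and 0.185 CPM in KO tumours, against 7.71, 6.60 and 7.97 CPM in WT tumours, and fell by 4.96 on the log2 scale (SE 0.39, adjusted p = 0.00134). In none of these did a KO tumour approach a WT tumour.

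Vangl2, a core membrane protein of planar cell polarity, had 0.998 and 0.431 CPM in KO tumours, against 41.3, 45.2 and 32.6 CPM in WT tumours, and fell by 5.69 on the log2 scale (SE 0.39, adjusted p = 0.000997), or -6.47 as a log2 fold change without KO tumour 1. The polarity kinase gene Prkcz and the scaffold gene Dlg3 had log2 fold changes of -4.21 (adjusted p = 0.00257) and -4.61 (adjusted p = 0.00116), and Prkcz had -4.91 without KO tumour 1. Cnn3 had 14.4 and 10.8 CPM in KO tumours, against 147, 170.0 and 186 CPM in WT tumours, and fell by 3.64 on the log2 scale (SE 0.22, adjusted p = 0.000763). It remained countable in KO tumours, though far under the WT level. Fermt2, kindlin-2, binds the tails of beta integrins and helps to activate integrins. It had 4.99 and 7.26 CPM in KO tumours, against 31.7, 34.8 and 28.7 CPM in WT tumours, and fell by 2.29 on the log2 scale (SE 0.21, adjusted p = 0.00198). In culture the same gene had 0 and 0.110 CPM in KO cultures, against 5.69 and 5.29 CPM in WT cultures.

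Wipf1, a partner of the actin regulator WASP, had 11.0 and 15.4 CPM in KO tumours, against 41.9, 35.2 and 41.1 CPM in WT tumours, and fell by 1.49 on the log2 scale (SE 0.17, adjusted p = 0.00387). Afap1l1, an actin filament-associated protein with no KO culture count, fell by 2.58 on the log2 scale (SE 0.37, adjusted p = 0.00692), with a log2 fold change of -3.26 without KO tumour 3. Add2 was the only gene of this role not called. It had 26.6 and 9.53 CPM in KO tumours, against 89.0, 52.9 and 51.7 CPM in WT tumours (log2 fold change -1.72, SE 0.49, adjusted p = 0.0521). KO tumour 1 stood well above KO tumour 3, and without KO tumour 1 the adjusted p was 0.0174, while without KO tumour 3 it was 0.0772. Over the 12 alternative settings its adjusted p ran from 0.00124 to 0.123 and passed in 7.

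Signalling genes formed the largest role, with 16 genes, of which 12 fell, 3 were not called and Adcy1 was removed by the filter. Among ligands, Wnt7b, a Wnt, had 1.06 and 6.21 CPM in KO tumours, against 31.5, 39.2 and 54.9 CPM in WT tumours, and fell by 3.46 on the log2 scale (SE 0.62, adjusted p = 0.0138). KO tumour 1 was the lower of the pair, and the log2 fold change was -5.13 without KO tumour 3 and -2.71 without KO tumour 1. Bmp8b, a bone morphogenetic protein, had a log2 fold change of -4.08 (adjusted p = 0.00384), or -4.70 without KO tumour 3. Pdgfd, a platelet-derived growth factor, had 3.62 and 1.48 CPM in KO tumours, against 43.7, 46.2 and 17.9 CPM in WT tumours, and fell by 3.71 on the log2 scale (SE 0.60, adjusted p = 0.00999), with -4.56 as its log2 fold change without KO tumour 1. Pros1, protein S, a cofactor of anticoagulation and a ligand of TAM receptors, had 2.74 and 6.46 CPM in KO tumours, against 67.2, 57.6 and 61.7 CPM in WT tumours, and fell by 3.68 on the log2 scale (SE 0.32, adjusted p = 0.00169), with -4.33 without KO tumour 3. For each of these 4 ligand genes both KO tumours lay below all WT tumours.

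Among receptors, Plxnb1, which binds semaphorin 4D, had 3.68 and 4.37 CPM in KO tumours, against 60.8, 85.0 and 84.6 CPM in WT tumours, and fell by 4.17 on the log2 scale (SE 0.22, adjusted p = 0.000487). Its WT tumour level was well above the 7.16 and 6.09 CPM of WT cultures. Tspan12 had 1.56 and 1.78 CPM in KO tumours, against 27.1, 31.2 and 23.3 CPM in WT tumours, and fell by 3.93 on the log2 scale (SE 0.25, adjusted p = 0.000790). Cd300lb had 0.873 and 1.05 CPM in KO tumours, against 11.2, 9.36 and 6.70 CPM in WT tumours, and fell by 3.15 on the log2 scale (SE 0.37, adjusted p = 0.00402). Npr2, the receptor of C-type natriuretic peptide, had a log2 fold change of -1.42 (adjusted p = 0.0479). Its call was lost without KO tumour 3 (adjusted p = 0.103) and without WT tumour 1 (0.148), 2 (0.113) or 3 (0.0778). Ccrl2, which binds chemerin, was not called and had 0.561 and 3.94 CPM in KO tumours, against 7.36, 10.2 and 11.8 CPM in WT tumours (log2 fold change -2.07, SE 0.68, adjusted p = 0.0774). The KO tumours were far apart for it, and without KO tumour 3 its adjusted p was 0.00584.

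Of the transducers inside the cell, Trib2, a pseudokinase of the tribbles family, had 2.18 and 2.83 CPM in KO tumours, against 79.7, 87.6 and 56.9 CPM in WT tumours, and fell by 4.81 on the log2 scale (SE 0.28, adjusted p = 0.000598). Ppp1r1b, which inhibits protein phosphatase 1 when phosphorylated by protein kinase A, had 4.93 and 15.9 CPM in KO tumours, against 219, 231 and 269.7 CPM in WT tumours, and fell by 4.46 on the log2 scale (SE 0.45, adjusted p = 0.00280). KO tumour 3 held more of it than KO tumour 1, and the log2 fold change was -5.43 without KO tumour 3 and -3.87 without KO tumour 1. Ldlrad4, a brake on TGF-beta signalling, fell by 1.85 on the log2 scale (SE 0.29, adjusted p = 0.00939), and Dusp22, a dual-specificity phosphatase, fell by 2.47 on the log2 scale (SE 0.34, adjusted p = 0.00604). Gng2, a G protein gamma subunit with no KO culture count, had 5.05 and 11.1 CPM in KO tumours, against 15.9, 14.5 and 21.2 CPM in WT tumours (log2 fold change -1.02, SE 0.34, adjusted p = 0.0810). It was not called, and without KO tumour 3 its adjusted p was 0.0183. Adcy1 had 0 and 0 CPM in KO tumours, against 0.116, 0.294 and 0.767 CPM in WT tumours, so that the gene was close to silent in the tumours of both lines.

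Of the 12 metabolic enzymes and binders of lipids or metals, 8 fell and 4 were not called. Ogdhl, a relative of the E1 subunit of 2-oxoglutarate dehydrogenase, had 0.312 and 0.185 CPM in KO tumours, against 37.7, 37.2 and 30.3 CPM in WT tumours, and fell by 7.01 on the log2 scale (SE 0.32, adjusted p = 0.000487). Ddah1 had 0.811 and 1.72 CPM in KO tumours, against 67.0, 66.1 and 74.9 CPM in WT tumours, and fell by 5.68 on the log2 scale (SE 0.27, adjusted p = 0.000487). Ckb had 3.68 and 6.95 CPM in KO tumours, against 83.5, 92.3 and 108 CPM in WT tumours, and fell by 4.07 on the log2 scale (SE 0.27, adjusted p = 0.000949). The KO tumours of all 3 lay below 7 CPM and the WT tumours above 30 CPM.

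Car8 had 0.1247 and 1.85 CPM in KO tumours, against 121, 112 and 68.4 CPM in WT tumours, and fell by 6.59 on the log2 scale (SE 0.68, adjusted p = 0.00296). KO tumour 1 held 2 counts of it, and the log2 fold change was -9.42 without KO tumour 3 and -5.73 without KO tumour 1. Nt5c3b, a nucleotidase that acts on methylated guanosine phosphate, had 1.19 and 2.21 CPM in KO tumours, against 19.8, 17.4 and 20.4 CPM in WT tumours, and fell by 3.42 on the log2 scale (SE 0.30, adjusted p = 0.00180). Pygl had 1.62 and 4.24 CPM in KO tumours, against 17.1, 16.2 and 10.8 CPM in WT tumours, and fell by 2.26 on the log2 scale (SE 0.44, adjusted p = 0.0164). Its log2 fold change was -3.01 without KO tumour 3, and its call was lost without WT tumour 1 (adjusted p = 0.0614) or WT tumour 2 (0.0657). Lipo3, a member of a lipase family with close relatives among which reads could be split, fell by 3.09 on the log2 scale (SE 0.40, adjusted p = 0.00530). Dio3 had 3.31 and 5.54 CPM in KO tumours, against 12.8, 12.1 and 14.7 CPM in WT tumours, and fell by 1.499 on the log2 scale (SE 0.27, adjusted p = 0.0140). It had far fewer reads in WT tumours than in WT cultures, and its call was lost without WT tumour 1 (adjusted p = 0.0572) or WT tumour 2 (0.0577).

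The 4 that were not called were counted in KO tumours at levels that overlapped the WT tumours or lay above them. Fabp5 had 9.67 and 18.6 CPM in KO tumours, against 17.9, 16.4 and 22.2 CPM in WT tumours (log2 fold change -0.34, SE 0.28, adjusted p = 0.424). Its fold change was 0.02 without KO tumour 1, on the other side of 0. Gatm, which makes the precursor of creatine, had 4.80 and 12.7 CPM in KO tumours, against 7.01, 6.95 and 16.1 CPM in WT tumours (log2 fold change -0.12, SE 0.51, adjusted p = 0.887), and its sign turned without KO tumour 1 (0.39) or WT tumour 3 (0.37). KO tumour 3 and WT tumour 3 held the most Gatm. Mboat2, an acyltransferase of lysophospholipids, had 5.93 and 7.32 CPM in KO tumours, against 10.8, 11.8 and 5.06 CPM in WT tumours (log2 fold change -0.39, SE 0.40, adjusted p = 0.519). Mt3, a metallothionein, had 0.811 and 1.35 CPM in KO tumours, against 0.348, 0.648 and 0.409 CPM in WT tumours (log2 fold change 1.28, SE 0.49, adjusted p = 0.112), the one gene of the set with both KO tumours above all WT tumours. Each of these 4 had a WT culture mean at least 16 times the KO culture mean, as the rule required.

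Genes of vesicles, channels and transporters numbered 12, of which 9 fell and 3 were not called. Gabrp, the pi subunit of the GABA-A receptor (ENSMUSG00000020159, chr11:33550781-33578959), had 13.7 and 17.3 CPM in KO tumours, against 349, 434 and 300.2 CPM in WT tumours, and fell by 4.46 on the log2 scale (SE 0.23, adjusted p = 0.000487). It was 107 CPM per kilobase of exon in WT tumours, the highest of the set on that scale. Piezo2 had 5.68 and 9.16 CPM in KO tumours, against 107, 90.5 and 69.0 CPM in WT tumours, and fell by 3.5 on the log2 scale (SE 0.28, adjusted p = 0.00134). Cacna2d1, an auxiliary subunit of calcium channels, had 2.06 and 5.04 CPM in KO tumours, against 36.1, 31.8 and 34.1 CPM in WT tumours, and fell by 3.19 on the log2 scale (SE 0.34, adjusted p = 0.00310), with -3.87 without KO tumour 3. Gabrp and Piezo2 were thus countable in KO tumours, where KO cultures had a few or no reads of them.

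Slc38a1, a glutamine transporter, fell by 2.84 on the log2 scale (SE 0.35, adjusted p = 0.00450), with -3.498 without KO tumour 3. Syt7 held 0.187 and 0 CPM in KO tumours, 3 counts in all, against 3.65, 2.47 and 4.04 CPM in WT tumours, a KO over WT ratio of 0.0272 with an exact 95% interval of 0.00555 to 0.0806 (adjusted p = 0.00999). All 3 counts were in KO tumour 1, and the fitted log2 fold change of Syt7 was -8.89 without it and -3.96 without KO tumour 3. Without KO tumour 1 no KO count was left, so the size of -8.89 depends on the prior count of the fit and is not a measured fold. Cadps had 0.686 and 0.861 CPM in KO tumours, against 6.14, 2.71 and 11.5 CPM in WT tumours, and fell by 3.03 on the log2 scale (SE 0.67, adjusted p = 0.0253). The WT tumours spread widely for Cadps, and its call was lost without KO tumour 1 (adjusted p = 0.107), KO tumour 3 (0.0694) or WT tumour 1 (0.0631) and with limma-voom (0.0703), while its log2 fold change was -2.44 without WT tumour 3.

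Serinc2, a membrane protein of the serine incorporator family, had 63.7 and 39.5 CPM in KO tumours, against 149, 139.9 and 119 CPM in WT tumours, and fell by 1.29 on the log2 scale (SE 0.26, adjusted p = 0.0174). Per kilobase of exon it had 22.3 CPM in KO tumours, the highest of the set there, and its call was lost without WT tumour 1 (adjusted p = 0.0537) or WT tumour 2 (0.0584). Trf, transferrin, carries iron and had 11.4 and 16.1 CPM in KO tumours, against 32.9, 72.8 and 53.3 CPM in WT tumours. It fell by 1.87 on the log2 scale (SE 0.35, adjusted p = 0.0151), a call lost without KO tumour 1 (adjusted p = 0.0759). Kcnk1, a potassium channel, had 0 and 5.17 CPM in KO tumours, against 27.8, 39.8 and 27.1 CPM in WT tumours (log2 fold change -3.56, SE 1.03, adjusted p = 0.0555). One KO tumour held no read of it and the other over 5 CPM, and its adjusted p was 0.00172 without KO tumour 3 and 0.0131 without KO tumour 1. Slc43a3, a solute carrier, was not called (log2 fold change -0.94, SE 0.50, adjusted p = 0.228), and its log2 fold change was -2.05 without KO tumour 3 (adjusted p = 0.0142) and -0.30 without KO tumour 1 (adjusted p = 0.545). Ano9, an anoctamin, was not called (log2 fold change -0.56, SE 0.28, adjusted p = 0.199).

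Of 5 genes of proteases and their inhibitors, 3 fell. Ace (ENSMUSG00000020681, chr11:105967945-105989964) had 0.998 and 1.85 CPM in KO tumours, against 177, 178 and 224 CPM in WT tumours, and fell by 6.99 on the log2 scale (SE 0.27, adjusted p = 0.000401), with the smallest p of the set. Mcpt1, a mast cell chymase gene of the mouse, had 20.7 and 19.1 CPM in KO tumours, against 89.5, 103 and 103 CPM in WT tumours, and fell by 2.21 on the log2 scale (SE 0.15, adjusted p = 0.000985). It remained well counted in both KO tumours. Mcpt8 had 0.998 and 4.98 CPM in KO tumours, against 17.8, 17.7 and 23.0 CPM in WT tumours, and fell by 2.64 on the log2 scale (SE 0.57, adjusted p = 0.0226). Its log2 fold change was -4.11 without KO tumour 3 and -1.93 without KO tumour 1, and its call was lost without WT tumour 1 (adjusted p = 0.0640), 2 (0.0703) or 3 (0.0613). Both belong to a family of close copies among which reads could be split, so their levels are uncertain. Ambp, the precursor of alpha-1-microglobulin and the protease inhibitor bikunin, had 15.97 and 44.9 CPM in KO tumours, against 51.2, 37.7 and 68.5 CPM in WT tumours (log2 fold change -0.72, SE 0.41, adjusted p = 0.258). Its log2 fold change was -1.55 without KO tumour 3 (adjusted p = 0.0280) and -0.18 without KO tumour 1 (adjusted p = 0.737). Prss22 had 11.98 and 7.32 CPM in KO tumours, against 10.9, 14.8 and 22.2 CPM in WT tumours (log2 fold change -0.62, SE 0.38, adjusted p = 0.287). For both, a KO tumour lay within the range of the WT tumours.

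Both transcription factor genes fell. Sox11, known from neural and embryonic progenitors, had 0.187 and 0.431 CPM in KO tumours, against 29.9, 27.3 and 12.2 CPM in WT tumours, and fell by 6.11 on the log2 scale (SE 0.62, adjusted p = 0.00287), with -6.74 as its log2 fold change without KO tumour 3. Tcf7, a factor of Wnt signalling and of T cells, had 2.56 and 4.55 CPM in KO tumours, against 41.5, 48.6 and 37.5 CPM in WT tumours, and fell by 3.501 on the log2 scale (SE 0.27, adjusted p = 0.00129). T cells of the host also transcribe Tcf7, and their part in its level was not tested. The 10 markers of T and NK cells summed to 34.7 and 93.2 CPM in KO tumours, against 33.0, 33.0 and 7.62 CPM in WT tumours. In cultures the same 10 markers summed to 1.81 to 3.72 CPM, nearly all of it Trac. Cd3e, Cd8a and Cd4 were at 0 in every culture. Tcf7 had 0.565 and 0.219 CPM in KO cultures, against 13.2 and 9.09 CPM in WT cultures.

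Smaller roles followed. Has2, which makes hyaluronan, and Csgalnact1, which starts chondroitin sulfate chains, fell by 3.49 on the log2 scale (SE 0.49, adjusted p = 0.00645) and 3.56 on the log2 scale (SE 0.40, adjusted p = 0.00361). Without KO tumour 3 their log2 fold changes were -4.24 and -4.16. The reticulocalbin genes Rcn1 and Rcn3 encode calcium-binding proteins of the endoplasmic reticulum. Rcn1 had 5.05 and 7.07 CPM in KO tumours, against 59.9, 59.9 and 58.8 CPM in WT tumours, and fell by 3.21 on the log2 scale (SE 0.16, adjusted p = 0.000487). Rcn3 fell by 1.94 on the log2 scale (SE 0.41, adjusted p = 0.0207), a call lost without KO tumour 1 (adjusted p = 0.0979). The 3 WT tumours of Rcn1 lay within 2 CPM of each other, and both KO tumours held a few CPM where KO cultures had no read.

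The F-box gene Fbxo2 fell by 3.63 on the log2 scale (SE 0.39, adjusted p = 0.00313), or -4.40 as a log2 fold change without KO tumour 3, and Kctd17, a cullin 3 adaptor, fell by 2.02 on the log2 scale (SE 0.17, adjusted p = 0.00153). The RING finger gene Rnf130 had 4.18 and 6.70 CPM in KO tumours, against 11.7, 11.6 and 10.4 CPM in WT tumours, and fell by 0.97 on the log2 scale (SE 0.26, adjusted p = 0.0449). Its call was lost without KO tumour 1 (adjusted p = 0.128) and without WT tumour 1 (0.156), 2 (0.160) or 3 (0.0690). Nlrp10, a member of the NLR family, had 0.561 and 0.984 CPM in KO tumours, against 56.0, 48.2 and 14.3 CPM in WT tumours, and fell by 5.58 on the log2 scale (SE 0.76, adjusted p = 0.00611), while limma-voom gave it an adjusted p of 0.0589. H2-Q10, a class I histocompatibility gene whose reads could be split among close copies, had 0.873 and 1.66 CPM in KO tumours, against 1.91, 1.12 and 3.78 CPM in WT tumours (log2 fold change -0.76, SE 0.59, adjusted p = 0.396).

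A further 16 genes are given without a role, and 14 of them fell. Bhlhb9 had 0.312 and 0.369 CPM in KO tumours, against 26.4, 26.3 and 20.6 CPM in WT tumours, and fell by 6.05 on the log2 scale (SE 0.31, adjusted p = 0.000487). Mab21l3 had 0.437 and 0.615 CPM in KO tumours, against 20.05, 19.6 and 11.2 CPM in WT tumours, and A230050P20Rik had 2.99 and 5.97 CPM in KO tumours, against 68.1, 69.6 and 65.9 CPM in WT tumours. Their log2 fold changes were -4.91 (adjusted p = 0.00180) and -3.84 (adjusted p = 0.000997). Medag had a log2 fold change of -3.98 (adjusted p = 0.00153), or -4.61 without KO tumour 3. Tceal8, without a KO culture count, had 2.37 and 2.83 CPM in KO tumours, against 7.30, 5.18 and 9.66 CPM in WT tumours, and fell by 1.41 on the log2 scale (SE 0.35, adjusted p = 0.0348). Leaving out any 1 of the 5 tumours ended the call of Tceal8, with adjusted p from 0.0588 to 0.109. Fam13a had 0.1247 and 5.17 CPM in KO tumours, against 14.4, 10.1 and 8.43 CPM in WT tumours, and was not called (log2 fold change -2.01, SE 0.99, adjusted p = 0.197). Its KO tumours were far apart, and the log2 fold change was -6.22 without KO tumour 3 (adjusted p = 0.00424) and -1.05 without KO tumour 1 (adjusted p = 0.147). Fam83f was not called either (log2 fold change -1.68, SE 0.65, adjusted p = 0.115).

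**Figure D3:**
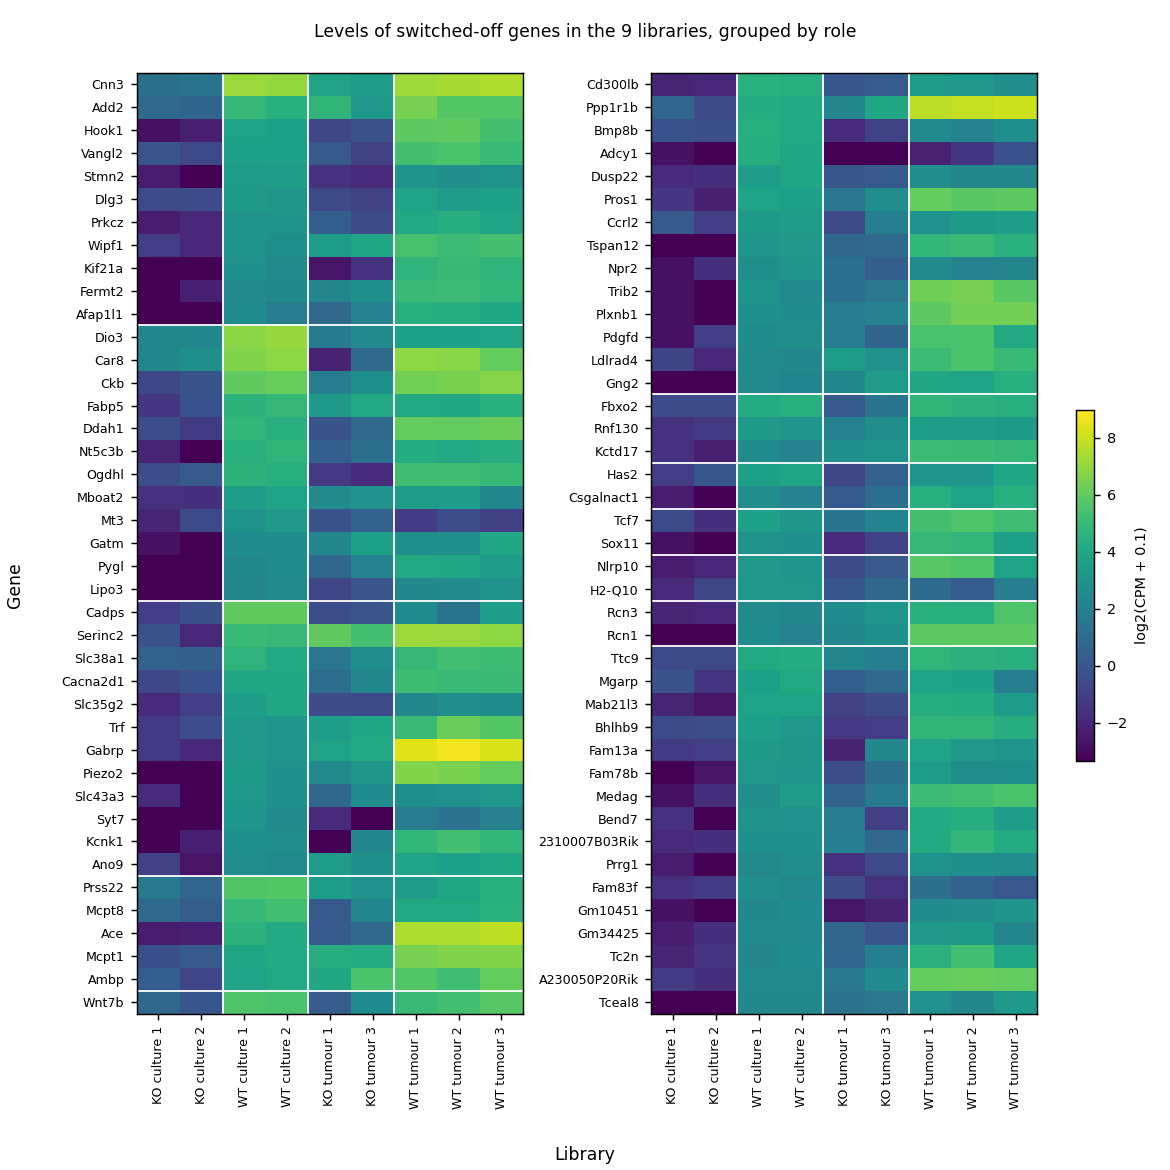
Level of 82 of the 83 switched-off genes (rows, grouped by role with white lines between roles) in each of the 9 libraries (columns, KO before WT within culture and within tumours), as log2(CPM + 0.1) on the colour scale. KO culture columns are darkest, KO tumour columns are uneven, with Serinc2, Ambp and Mcpt1 among the brightest there, and WT columns are bright throughout except for genes such as Adcy1 and Mt3 in WT tumours.

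The levels in tumours were then set beside those of the same line in culture, without a test, because the setting is also the batch tag of the labels. The rule also chose the genes for low KO culture means, so a higher KO tumour mean was largely fixed in advance. The KO tumour mean was above the KO culture mean for 76 of the 83 genes and below it for 7, and it reached 5 CPM for 23 genes and stayed under 1 CPM for 24. KO tumour 3 was above KO tumour 1 for 60 of the 83 genes. None of these counts was set beside a share over all genes. Gabrp had 13.7 and 17.3 CPM in KO tumours, against 0.329 and 0.164 CPM in KO cultures. Serinc2 had 63.7 and 39.5 CPM in KO tumours, against 0.800 and 0.164 CPM in KO cultures. For Ambp the values were 15.97 and 44.9 CPM in KO tumours, against 1.18 and 0.493 CPM in KO cultures. These 3 were low in KO cultures and plainly counted in the tumours that the same cells formed. At the other end, Car8 and Dio3 had a few CPM in KO cultures, and Car8 had less in both KO tumours.

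Levels differed between the settings in the WT line as well. The WT tumour mean was above the WT culture mean for 57 of the 83 genes and below it for 26, with a median ratio of 1.60 beside 1.21 over all genes with a WT culture mean of at least 5 CPM. It was at least 4 times the culture mean for 24 of the 83 (28.9%, beside 4.30% of those genes) and at most 1/4 of it for 6 (7.23%, beside 1.95%). The WT tumour over WT culture ratio was 39.6 for Gabrp, 12.6 for Ppp1r1b, 11.6 for Plxnb1, 11.4 for Rcn1 and 8.94 for Ace. It was 0.0221 for Adcy1, 0.0527 for Mt3, 0.103 for Dio3 and 0.107 for Cadps.

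**Figure D4:**
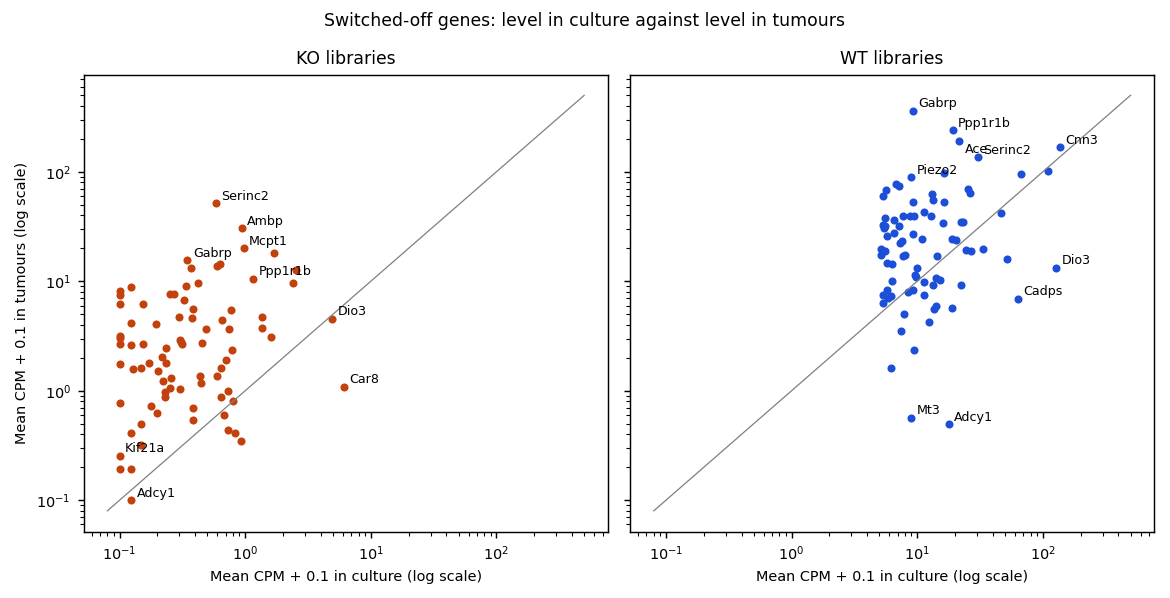
Mean CPM + 0.1 in tumours (vertical, log scale) against mean CPM + 0.1 in culture (horizontal, log scale) for the 83 switched-off genes in KO libraries (left) and WT libraries (right), with a grey line where both are equal. In KO libraries 76 points lie above the line, and in WT libraries 57 do. The rule chose the genes for low KO culture means, which favoured points above the line in KO libraries in advance.

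Host cells are a further difference between the settings and between the tumours. The sum of the fibroblast and pericyte markers was lower in KO tumours, as given above, and is mostly Col1a1 and Col3a1. Col1a1, Col3a1, Postn, Lum and Pdgfra were lower in both KO tumours than in every WT tumour. Pdgfrb, Dcn, Dpt, Acta2 and Rgs5 overlapped. The mean of Rgs5 was higher in KO tumours, at 51.9 CPM, against 37.9 CPM in WT tumours. The 7 endothelial markers summed to 36.5 and 79.9 CPM in KO tumours, against 95.9, 76.9 and 174 CPM in WT tumours. The 10 macrophage and monocyte markers summed to 293 and 460 CPM in KO tumours, against 273, 300 and 468 CPM in WT tumours, and the 5 muscle markers to 52.5 and 15.99 CPM in KO tumours, against 33.6, 36.3 and 132 CPM in WT tumours. The macrophage list also summed to 159 CPM in each KO culture and 186 to 194 CPM in WT cultures, nearly all of it Mrc1, at 156 and 158 CPM in KO cultures and 190.0 and 182 CPM in WT cultures, above every tumour. Of its other markers, Lyz2, C1qa, C1qb, C1qc and Itgam were at 0 in every culture, and none of the 10 was at 0 in a tumour. Genes of the set that host tissue also transcribes, such as Ace in endothelium and Cnn3, Pdgfd and Has2 in fibroblasts, fell beside these marker levels, and the part of host cells in their tumour values was not tested. Epithelial markers summed to 11559 and 9494 CPM in KO tumours, against 7619, 7077 and 6151 CPM in WT tumours. The sum is mostly keratins and Cdh1. Krt8, Krt18, Krt19 and Muc1 were higher in both KO tumours than in every WT tumour, while Cdh1 and Krt7 overlapped. Krt8 had 3821 and 3346 CPM in KO tumours, against 2256, 1917 and 1670 CPM in WT tumours. Muc1 had 847 and 596 CPM in KO tumours, against 318, 345 and 289 CPM in WT tumours. The other 2 of the 8 markers were lower in both KO tumours than in every WT tumour. Epcam had 36.6 and 46.6 CPM in KO tumours, against 128, 183 and 80.5 CPM in WT tumours, and Sox9 had 32.6 and 44.3 CPM in KO tumours, against 182, 206 and 129 CPM in WT tumours.

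Gene lists around the members' functions gave the calls of genes with related roles. The lists were written with earlier results of these data known, and their counts are a description, to be read beside the 10.9% of all genes tested that fell in KO tumours and the 8.78% that rose. Of 43 genes of regulated secretion and synaptic vesicles, 25 were tested in tumours, 9 fell, 3 rose and 13 were not called. In culture 17 of them reached 5 CPM in WT libraries, and only Cadps and Syt7 were past the 16-fold limit. The vesicle priming gene Rims2 had a log2 fold change of -5.89 (adjusted p = 0.00433) and the synaptotagmin-like gene Sytl2 one of 2.77 (adjusted p = 0.00224), so the list moved both ways. Of 28 genes of the neuronal cytoskeleton, 16 were tested, 4 fell and 1 rose, and Stmn2 was the single one past 16-fold in culture. Dclk1, a microtubule-binding kinase, had a log2 fold change of -7.31 (adjusted p = 0.000538) and the kinesin gene Kif5c one of 2.70 (adjusted p = 0.00930).

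The 15 genes of dynein adaptors and microtubule transport included Hook1 and Kif21a. In tumours 14 were tested, 3 fell and 11 were not called. Adenylyl cyclases and phosphodiesterases, 28 genes with 23 tested, fell in 5 cases and rose in 1, and Adcy1 was the only one past 16-fold in culture. Adcy3 had a log2 fold change of -1.96 (adjusted p = 0.00623). Of 7 creatine genes, 6 were tested, Ckb fell and the mitochondrial creatine kinase gene Ckmt1 rose by 3.99 on the log2 scale (adjusted p = 0.00799), while Ckb and Gatm were both past 16-fold in culture. Of 15 nucleotidase and purine salvage genes tested, 3 fell and 3 rose, and of 6 membrane peptidases of the angiotensin system, 2 fell, Ace among them. Of 9 tested genes of the CD300 family and its relatives, Cd300lb was the one that fell.

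Other lists held no member of the set. At the culture limit, which 0.934% of genes at this WT level passed, lists of this size would hold few or none. None of the 25 type I interferon genes that reached 5 CPM in WT cultures was past the 16-fold limit, outside the symbols set aside, and in tumours 16 of 40 rose and 1 fell. Of the listed genes that reached 5 CPM in WT cultures, neither the 5 imprinted, the 10 surface glycoprotein nor the 17 antioxidant genes included one past the limit. The imprinted list does not hold Dio3, a member of the set that is itself imprinted in the mouse. In tumours, where 10.9% of all genes tested fell and 8.78% rose, 6 of 21 imprinted genes fell, 3 of 20 surface glycoprotein genes fell and 1 rose, and 4 of 25 antioxidant genes fell and 9 rose. No germline gene of 20 reached 5 CPM in WT cultures, and 3 were tested in tumours.

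The 83 genes were spread over the genome. They lay on 19 chromosomes, with 9 on chromosome 12 (10.8% of the set, beside 3.55% of genes with a WT culture mean of at least 5 CPM) and 0 on chromosome 10. For each gene, the 5 nearest transcribed genes on each side (8 in all for 1 gene) were compared between KO and WT cultures as log2 ratios of mean CPM + 0.1. The medians of these flanks ran from -0.65 to 0.49, with a median of -0.04 over the set, beside 0.02 over all genes with a WT culture mean of at least 5 CPM. For 72 of the 83 genes no flanking gene was at -4 or below. For the other 11 at least 1 was. These counts were not set beside a share over all genes, so whether low flanks were more common here was not tested. The flanking genes may include other members of the set. With 0.1 CPM added to both means, -4 is also a stricter limit than the ratio of the rule.

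**Figure D5:**
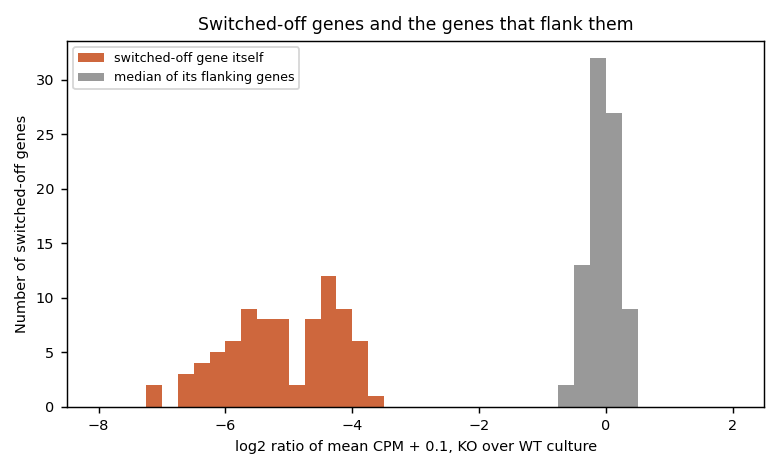
Number of switched-off genes (vertical axis) by log2 ratio of mean CPM + 0.1, KO over WT culture (horizontal axis), for the gene itself (orange) and for the median of its flanking genes (grey). The flank medians stay between -0.65 and 0.49, while the rule placed the genes themselves far below.

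Only 4 genes of the set had another within 1 Mb. Mcpt1 and Mcpt8 start 64195 bases apart on chromosome 14, in the cluster of mast cell proteases and granzymes, and Gzme of the same cluster lay just outside the 1/16 limit. Bhlhb9 and Tceal8 start 371390 bases apart on chromosome X. Of the 83 genes, 42 overlap another annotated gene and 31 of these one on the other strand, and no source used here gives the strand setting of the counting, so reads of such partners may not be told apart.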

How the data were processed

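Bulk RNA-seq covered 9 libraries of 2 mouse lines in culture and as tumours, called biological replicates by the labels. Nothing says whether replicates came from separate cultures or animals, so p-values measure the spread between these libraries, which may be technical. The submitters' processing notes name GRCm38 and, in no stated role, STAR 2.5.2b, fastp 0.23.1, DESeq2, Subread 1.5.2 and featureCounts, and the labels' protocols state that duplicates were removed by molecular identifier. The deposited tables are the authors' raw counts for 49671 Ensembl genes, of which 49326 had a symbol in GENCODE M21. No source used here gives the annotation release or strand setting. ERCC controls were added per the labels, and 0 rows of the tables list them.

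Depth was 16032912 to 21247023 counts per library. Chi-square per gene between replicates ran from 6.55 (WT tumours 1 and 2) to 43.9, above counting noise. Members were chosen on CPM by library totals. Tumours were tested alone, since setting equals batch: filterByExpr (minimum count 10, total 15), TMM, then edgeR 4.0.16 (R 4.3.3) with its quasi-likelihood test, prior count 0.125, SE from the fold change and F. On simulated counts for the tumour comparison over 15844 genes, 77.6% of changes of 2 and 30.6% of changes of 1 on the log2 scale were recovered. These were 76 and 30 genes, each of 98 changed, and a further 16 calls fell on genes simulated without a change. Floors of 3 counts over a group and 95% intervals cover counting error only.

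The members and lists were chosen with earlier results of these data known. Genes were named by this rule: Itga2, the 12 members with most CPM in WT culture, those without a KO culture count, the 8 smallest p in tumours in each direction, the 6 with most CPM in KO tumours, the 4 on either side of each limit, members of lists and up to 3 others of each list. Other members were named, and roles assigned, after their values were seen. Alternatives were other scalings and filters, DESeq2 1.42.0, limma-voom (limma 3.58.1), 1 fit of all libraries, each library left out and other limits of the rule. Promoter sequences are RefSeq's, of GRCm38.p6. One member counts in the totals but is not reported here.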

Additional observations from a re-analysis of the deposited data

Results flagged for a closer look

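Mt3 lay on opposite sides of the WT level in the 2 settings. Every KO culture lay below every WT culture, with 0.141 and 0.548 CPM in KO cultures, against 7.61 and 10.2 CPM in WT cultures, and every KO tumour lay above every WT tumour, with 0.811 and 1.35 CPM in KO tumours, against 0.348, 0.648 and 0.409 CPM in WT tumours. The KO over WT ratio of means in tumours was 2.31. Of all genes tested, 21.2% had every KO tumour above every WT tumour, and edgeR did not call Mt3 (adjusted p = 0.112). The difference between the settings was not tested, and the culture side of it was fixed by the rule that chose the gene. At these tumour levels the KO libraries held 35 counts in all and the WT libraries 25.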

How the results depend on the processing

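Limits of the rule changed the size of the set, which held 148 genes at a ratio of 1/8, 52 at 1/32, 176 at a WT floor of 2 CPM and 39 at a floor of 10 CPM. Of these, 112 of 148 fell in KO tumours at 1/8, 126 of 176 at the floor of 2 CPM and 31 of 39 at the floor of 10 CPM. For the 83 genes, other scalings, filters and tools called 66 to 72 lower and 0 higher. Leaving out 1 tumour library at a time gave 54 to 68 lower. Over all genes the same omissions gave 754 to 1989 lower and 417 to 2154 higher, with the lowest counts without WT tumour 2, followed by 797 lower and 461 higher without WT tumour 1, then 1116 and 854 without KO tumour 1. KO tumour 3 left out gave 2154 higher. Of the 66 calls, 50 were kept under all 12 alternatives and 16 were lost under at least 1. Sign changes occurred for Fabp5 without KO tumour 1 (log2 fold change 0.024, adjusted p = 0.957, with -0.79 at the other end without KO tumour 3) and for Gatm without KO tumour 1 (0.39, adjusted p = 0.664, with -0.89 without KO tumour 3) or WT tumour 3 (0.37, adjusted p = 0.614). Why a call was lost was not tested; the cause was not tested for the counts either, beyond the smaller number of libraries in each omission. No paired analysis was possible because 1 KO tumour column could be assigned to its group only, so the tumour groups share fewer than 2 replicate numbers. WT tumours 1 and 2 were closer to each other than any other pair of replicates, and the tests treat them as independent. With 2 KO tumours, a gene that was not called may still differ.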
